A study of Mus musculus with 8 samples.

Results

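PD-1+ and CCR6+ progenitors of innate lymphoid cells were compared across all genes, in 2 RNA-seq libraries of each, which make up 4 of the series' 8 libraries. The members were taken from the sample titles, and no measured value was used to choose them. All 4 libraries came from the marrow of C57BL/6 mice, an inbred strain, with no treatment or engineered allele named, and the labels give no age or sex. The cells were captured on magnetic beads through integrin α4β7 and then sorted as live, lineage-negative, CD127+, Flt3-, α4β7+, ST2-, Kit+ cells. From this shared gate the PD-1+ group took cells without CCR6, and the CCR6+ group took cells without PD-1. Per the labels, the first are ILC progenitors outside the lymphoid tissue inducer (LTi) branch and the second are LTi progenitors. The study's stated question was which genes mark each of them. The series also holds 2 libraries of the undivided gate (ChILP, the common helper-like ILC progenitor) and 2 of common lymphoid progenitors (CLP), which were enriched in another way, by depleting lineage-positive cells.

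Innate lymphoid cells (ILCs) respond to cytokines without rearranged antigen receptors. Helper ILCs are grouped as ILC1, ILC2 and ILC3, and LTi cells, which resemble ILC3, help to form lymph nodes and Peyer's patches. The factors GATA3, TCF-1, PLZF (encoded by Zbtb16), TOX, ID2 and NFIL3 act in steps of ILC commitment, RORα and BCL11B are known for their roles in ILC2, and PLZF is known to mark progenitors that give rise to helper ILCs but few LTi cells.

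Reads assigned to genes numbered 10667762 and 12153158 in PD-1+ replicates 1 and 2, and 7875507 and 11394107 in CCR6+ replicates 1 and 2. No label ties the replicates to different animals, and p-values therefore reflect only the spread between libraries, which may be technical. The main test takes that spread from all 8 libraries of the series, ChILP and CLP included. The PD-1+ libraries differed from each other, with a chi-square per gene of 76.5 and a correlation of log2 CPM (read counts scaled to a common library total) across genes of 0.909. The closest pair of all 4 libraries crossed the groups: PD-1+ replicate 2 and CCR6+ replicate 2 gave a chi-square of 17.7 and a correlation of 0.960. The CCR6+ libraries gave 38.9 and 0.937 with each other. Results are therefore given per library, in the order PD-1+ replicate 1, PD-1+ replicate 2, CCR6+ replicate 1, CCR6+ replicate 2. Levels are in RPKM, read counts scaled for transcript length and library total. In bulk libraries such as these, fewer cells of a type and less RNA per cell cannot be told apart.

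The genes that define the sort followed the labels, more sharply in the number 1 libraries. Pdcd1 (NM_008798), which encodes PD-1, stood at 181, 36.3, 0 and 1.10 RPKM. Ccr6 (NM_001190333), the chemokine receptor of the LTi gate, stood at 0, 8.11, 84.2 and 23.6 RPKM. Thus PD-1+ replicate 2 held less Pdcd1 RNA than replicate 1 and some Ccr6 RNA, and CCR6+ replicate 2 held less Ccr6 RNA than its replicate 1. Il7r, which encodes CD127, stood at 45.2, 13.5, 27.5 and 12.2 RPKM, and the stem cell factor receptor gene Kit at 29.2, 8.21, 17.5 and 6.93, so both were lower in the number 2 libraries of both groups. The integrin α4 gene Itga4 stood at 19.4, 11.3, 12.9 and 9.27 RPKM and the β7 gene Itgb7 at 188, 199.7, 174 and 237. Flt3, which the gate leaves out, stood at 5.54 to 7.98 RPKM in these libraries, against 92.1 and 157 in CLP. Il1rl1, which encodes the excluded ST2, stood at 0.0678, 4.45, 3.95 and 1.84 RPKM. Over these 8 genes the median difference was 0.12 on the log2(CPM + 1) scale.

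Transcripts of mature marrow cells were abundant in all 4 libraries, although the gate excluded lineage-positive cells. The 14 neutrophil genes tested summed to 16883, 34228, 23007 and 37114 RPKM, and all 14 were higher in the number 2 library in both groups. The 11 erythroid genes tested, among 12 listed, summed to 29486, 34380, 42791 and 35026 RPKM. Of the defining markers Hba-a1, Hbb-b1, S100a8, S100a9, Lyz2, Ltf, Mpo, Csf1r, C1qa, Cd79a, Siglech, Cpa3, Mcpt8 and Pf4, none was at 0 in any of the 4 libraries. Immediate early genes, which are switched on within minutes of many stimuli including tissue dissociation, summed to 3831, 6340, 3797 and 7134 RPKM, and 15 of 16 were higher in the number 2 library in both groups, as were 3951 of all 13619 genes tested. PD-1+ replicate 1 held the lowest sum of the 4 libraries for 7 of the 8 lists of other marrow cells in the plot, the exception being the megakaryocyte list. The part of these cells in the differences below was not tested.

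**Figure D1:**
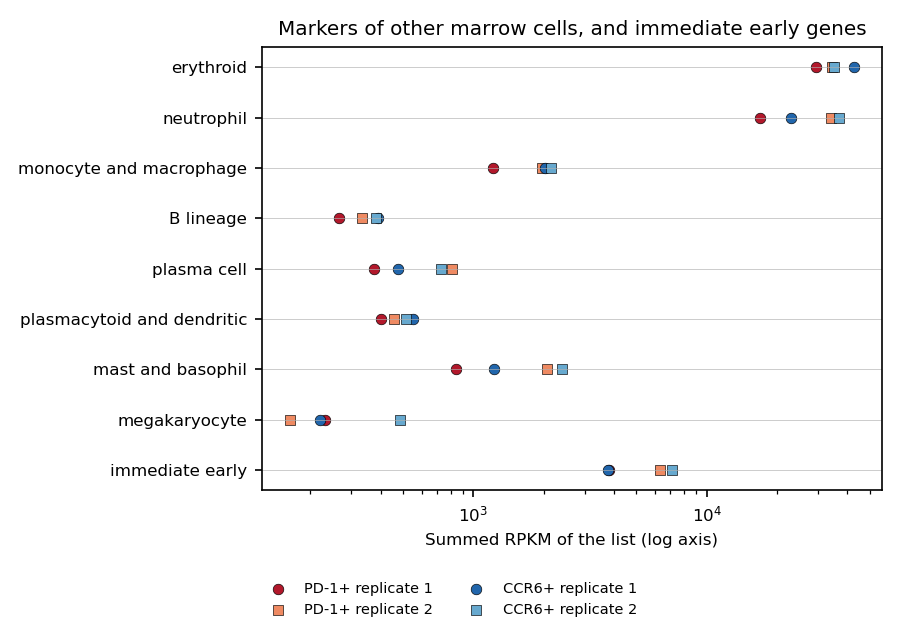
Summed RPKM (log axis) of marker genes of other marrow cells and of immediate early genes in each of the 4 libraries. The neutrophil sum was 34228 and 37114 RPKM in the number 2 libraries and 16883 and 23007 in the number 1 libraries.

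The genes most clearly higher in both PD-1+ libraries than in both CCR6+ libraries included regulators of ILC development and several genes without a known place in it. Fewer genes were at least 2-fold higher in both CCR6+ libraries. After adjustment none passed the test: the quasi-likelihood test of edgeR, adjusted by the Benjamini-Hochberg method, called 0 of 13619 genes (0.0%) at an adjusted p under 0.05, the lowest adjusted p being 0.331. At an unadjusted edgeR p under 0.05 there were 801 genes (5.88%), 555 higher in PD-1+ (4.08%) and 246 higher in CCR6+ libraries (1.81%). DESeq2, another count model, called 131 (0.962%), of which 99 were higher in PD-1+ libraries. Without PD-1+ replicate 2, edgeR called 36 of 14304 genes (0.252%). With 2 libraries against 2, an exact permutation test of a single gene cannot go below p = 0.333. Genes are therefore described by whether the libraries of the groups overlap. In CPM the groups did not overlap for 2381 genes higher in PD-1+ (17.5%) and 2146 higher in CCR6+ libraries (15.8%). If the order of the 4 libraries were unrelated to group, a gene would lack overlap, on either side, with the same probability of 0.333. The 2 shares together are near it, so a lack of overlap alone does not set a gene apart. A stricter set, called 2-fold apart here, had both libraries of one group at least 2-fold above both of the other in CPM plus 1: it held 222 genes higher in PD-1+ (1.63%) and 122 higher in CCR6+ libraries (0.896%). On RPKM plus 1 those counts were 85 and 34, and with CPM plus 0.1 they were 315 and 233.

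The 2-fold apart genes of the PD-1+ side were higher in replicate 1 than in replicate 2 in 198 of 222 cases, and 55 of them had no read in either CCR6+ library. On the CCR6+ side 90 of 122 were higher in CCR6+ replicate 1 than in replicate 2, and 48 had no read in either PD-1+ library. The higher group averaged 10 RPKM or more for 38 and 9 genes of these sets, so most of both lay at low levels.

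**Figure D2:**
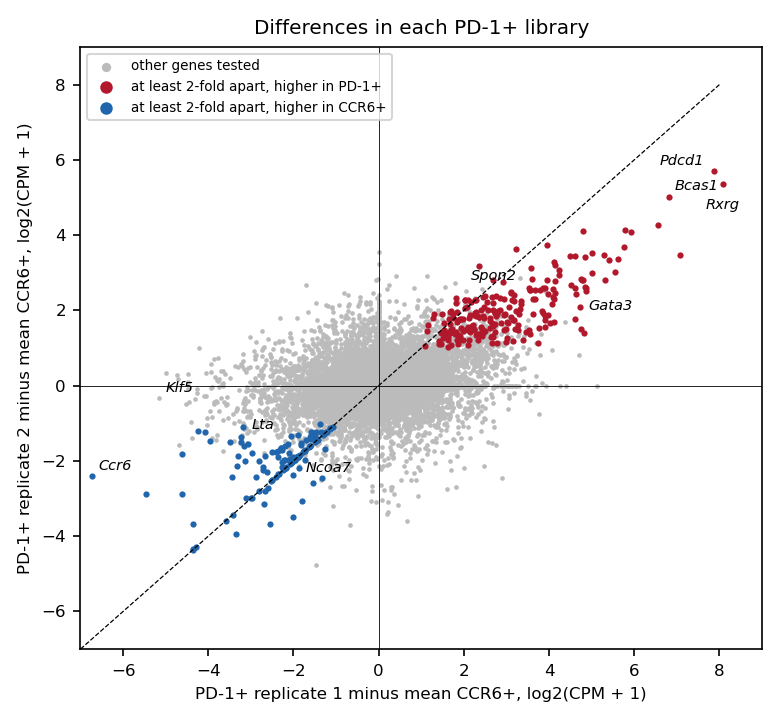
Difference of each PD-1+ library from the mean of the CCR6+ libraries, in log2(CPM + 1), for the 13619 genes tested, with the 222 and 122 genes that were 2-fold apart in colour. Most of the coloured PD-1+ genes lie under the dashed line of equality, since 198 of 222 were higher in PD-1+ replicate 1 than in replicate 2.

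Regulators of ILC progenitors were the list most shifted to the PD-1+ side. Of its 16 genes, all tested, 11 were without overlap and higher in PD-1+ and 8 of these were 2-fold apart, against none on the CCR6+ side. Over all genes tested the PD-1+ shares were 17.5% without overlap and 1.63% 2-fold apart. Their median difference was 2.22 on the log2(CPM + 1) scale with both PD-1+ libraries, 2.98 with PD-1+ replicate 1 alone and 1.30 with replicate 2 alone, and the median over all genes was 0.0. None of the 16 passed the adjusted test.

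Gata3 (NM_008091), the GATA factor required by helper ILCs and T cells, stood at 316, 62.8, 10.8 and 11.97 RPKM (log2 fold change 3.95, SE 0.72). Zbtb16 (NM_001033324), which encodes PLZF, stood at 46.1, 11.8, 0.732 and 1.23 RPKM (log2 fold change 4.77, SE 0.82). Bcl11b (NM_001079883), a zinc finger factor of the T cell and ILC2 lineages, stood at 21.7, 5.17, 0.791 and 0.546 RPKM (log2 fold change 4.23, SE 0.81). In each of these genes the weaker PD-1+ library still lay several-fold above the stronger CCR6+ library. Tcf7 (NM_009331), the gene of TCF-1, stood at 238, 45.9, 20.4 and 12.1 RPKM (log2 fold change 3.02, SE 0.70). Rora (NM_013646), the gene of RORα, stood at 307, 73.7, 24.6 and 10.7 RPKM (log2 fold change 3.33, SE 0.72). Tox (NM_145711), an HMG box factor that ILC progenitors depend on, stood at 106, 23.2, 11.1 and 5.99 RPKM (log2 fold change 2.82, SE 0.70). These factors were thus present in the CCR6+ libraries as well, at lower levels. Tox2, a relative of Tox, stood at 201, 39.2, 8.94 and 4.06 RPKM, and Sox4, an HMG box factor of early lymphoid cells, at 30.0, 11.5, 1.39 and 5.23. Both belonged to the genes 2-fold apart.

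Other regulators were less separated. Id2 (NM_010496), the inhibitor of E proteins expressed by all ILCs, stood at 696, 226, 221 and 164 RPKM (log2 fold change 1.16, SE 0.44), so PD-1+ replicate 2 and CCR6+ replicate 1 were nearly level. Ets1, an ETS factor of lymphocytes, stood at 67.3, 38.2, 25.1 and 24.3 RPKM. Nfil3 (NM_017373), which acts early in ILC commitment, stood at 31.1, 35.4, 22.4 and 38.9 RPKM, with the groups overlapping (log2 fold change 0.06, SE 0.36). Lef1, the relative of TCF-1, stood at 21.1, 4.41, 5.52 and 2.88 RPKM and overlapped as well. Runx1, Runx3 and Maf were the other overlapping regulators.

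**Figure D3:**
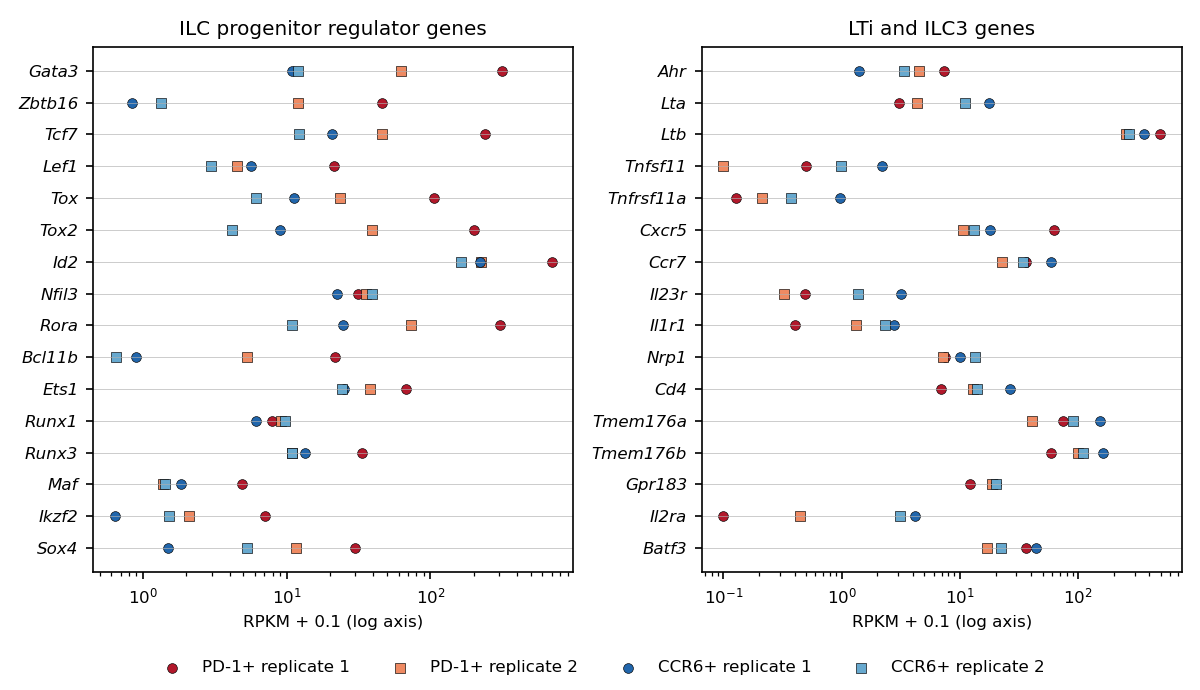
RPKM plus 0.1 (log axis) of the 16 ILC progenitor regulators and of 16 of the 17 tested LTi and ILC3 genes, 1 point per library. PD-1+ libraries lie to the right of both CCR6+ libraries for Gata3, Zbtb16, Tcf7, Tox, Tox2, Rora, Bcl11b and Sox4, whereas Ltb and Cxcr5 overlap.

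Promoter windows are shown for genes of each side because Gata3, which encodes a DNA-binding factor, was among the regulators 2-fold apart. Each window holds the 250 bases before and 50 after a RefSeq transcription start in the GRCm38.p6 build, read 5′ to 3′ on the gene's strand, and capitals mark a GATA motif on either strand, spelled AGATAA or, with other first or last letters, TGATAA and also AGATAG and also TGATAG. The windows are Gata3 at chr2:9878551-9878850 on the minus strand, Rora at chr9:68653536-68653835 on the plus strand, Fgf3 (a PD-1+ gene described below) at chr7:144838362-144838661 on the plus strand and Sdc4 (a CCR6+ gene described below) at chr2:164443139-164443438 on the minus strand.
Gata3: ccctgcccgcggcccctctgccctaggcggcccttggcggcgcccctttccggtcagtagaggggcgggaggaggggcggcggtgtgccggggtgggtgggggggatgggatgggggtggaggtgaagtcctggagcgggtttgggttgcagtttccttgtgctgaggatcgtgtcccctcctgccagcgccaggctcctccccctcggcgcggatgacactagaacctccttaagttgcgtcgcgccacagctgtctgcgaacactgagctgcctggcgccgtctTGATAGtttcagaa
Rora: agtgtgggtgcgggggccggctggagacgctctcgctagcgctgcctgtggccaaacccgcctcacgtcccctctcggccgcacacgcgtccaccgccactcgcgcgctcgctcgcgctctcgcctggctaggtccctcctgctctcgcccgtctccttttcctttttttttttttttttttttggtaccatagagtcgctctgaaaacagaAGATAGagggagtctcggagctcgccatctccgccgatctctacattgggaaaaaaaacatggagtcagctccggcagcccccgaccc
Fgf3: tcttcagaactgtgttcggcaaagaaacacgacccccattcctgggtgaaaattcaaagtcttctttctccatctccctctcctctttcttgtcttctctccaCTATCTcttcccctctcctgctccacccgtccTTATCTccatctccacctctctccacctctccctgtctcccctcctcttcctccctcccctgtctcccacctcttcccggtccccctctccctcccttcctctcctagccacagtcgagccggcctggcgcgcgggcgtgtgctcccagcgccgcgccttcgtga
Sdc4: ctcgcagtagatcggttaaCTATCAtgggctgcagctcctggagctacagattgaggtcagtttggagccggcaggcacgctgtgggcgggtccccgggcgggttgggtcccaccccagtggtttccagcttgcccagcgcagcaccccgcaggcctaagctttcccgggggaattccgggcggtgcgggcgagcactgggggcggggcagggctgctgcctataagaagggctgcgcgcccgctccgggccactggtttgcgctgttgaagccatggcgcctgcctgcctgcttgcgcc
The Fgf3 window held 2 matches and the others 1 each. These windows were chosen for having a match: 6 of the 30 windows of the named genes that were looked up held one, and those of Bcl11b, Tcf7, Rxrg, Pdcd1, Lrrc52, Id2, Lta and Ncoa7, among others, held none. The windows with a match that are not shown belong to Hipk2 and Wdr34, both CCR6+ genes described below. Of the genes 2-fold apart, 160 of 222 on the PD-1+ side and 76 of 122 on the CCR6+ side had a window, some more than 1. Of the 13619 genes tested, 9591 had one. A GATA motif was present in 19.3% of 228 windows on the PD-1+ side and 22.2% of 108 on the CCR6+ side, and in 19.6% of 12240 windows of tested genes. A TCF and LEF motif, spelled CTTTGAA with CTTTGAT as its other form, on either strand, was in 8.33% of PD-1+ windows, 6.48% of CCR6+ windows and 5.96% of windows of tested genes. The core motif AGGTCA of nuclear receptors, on either strand, was in 14.0%, 17.6% and 12.7%. Over all 32851 RefSeq windows of this length the shares were 29.8%, 8.65% and 16.3%. CTTTGAT ends in the letters that open TGATAA and TGATAG, so 1 stretch can match both motifs. A match is a description of letters only. The windows do not use the mm9 build that the submitters name.

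ILC2 genes were also shifted to the PD-1+ side. Of 16 listed genes 14 were tested. Of these, 5 were 2-fold apart and higher in PD-1+ and none in CCR6+ libraries, beside 1.63% and 0.896% of all genes tested. The median difference was 1.06 (2.21 with PD-1+ replicate 1 alone and 0.74 with replicate 2 alone). Il17rb (NM_019583), the receptor chain for IL-25, stood at 61.6, 11.3, 1.09 and 2.30 RPKM (log2 fold change 4.30, SE 0.83). Arg1 (NM_007482), the arginase found in ILC2 and their precursors, stood at 112, 20.8, 2.66 and 0.929 RPKM (log2 fold change 5.12, SE 0.89). Icos, a costimulatory receptor of ILC2, stood at 40.0, 10.1, 2.30 and 2.47 RPKM. Nmur1, the neuromedin U receptor of ILC2, stood at 17.2, 0.960, 0 and 0.0563 RPKM, so its level rested mostly on PD-1+ replicate 1. Effector genes of ILC2 were low or at 0: Il5 was at 0 in all 4 libraries and Il13 as well, and Il4 stood at 1.03, 3.26, 4.03 and 4.43 RPKM. Ccr8, Csf2 and Areg overlapped between the groups, as did Pparg at 5.94 to 8.65 RPKM.

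Among all genes without overlap whose higher group averaged 10 RPKM or more, the 12 with the lowest unadjusted p on the PD-1+ side included 3 from those lists that were just given (Gata3, Zbtb16 and Arg1), Pdcd1 itself, and 8 others. Rxrg (NM_009107), which encodes the retinoid X receptor γ and also stands in the ILC2 list, had the lowest p, at 98.1, 13.4, 0.0439 and 0 RPKM. The CCR6+ libraries held 1 Rxrg read in all, which gives a ratio of pooled rates of 2761 (exact 95% interval 495 to 109076, counting error only). Its genomic neighbour Lrrc52 (NM_001013382), an auxiliary subunit of potassium channels, stood at 64.1, 11.4, 0.0823 and 0 RPKM. That gene too had few CCR6+ reads, with a ratio of 1001 (exact 95% interval 179 to 39576). Bcas1 (NM_029815), known from oligodendrocytes and from breast tumours, stood at 26.2, 6.75, 0 and 0 RPKM. Against 3 counts over the CCR6+ group it was at least 399-fold higher in PD-1+ libraries.

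Fgf3 (NM_008007), a fibroblast growth factor of development, stood at 113, 24.9, 3.21 and 4.25 RPKM (log2 fold change 4.09, SE 0.74). Spon2 (NM_133903), a secreted protein that binds microbial products and integrins, stood at 25.1, 11.2, 1.38 and 2.06 RPKM (log2 fold change 3.31, SE 0.43). Its SE was the smallest of these 12 genes. Emid1, an extracellular matrix protein, stood at 69.7, 24.1, 5.97 and 3.63 RPKM. Tnni1, the troponin I of slow muscle, stood at 64.1, 15.8, 0 and 0.948 RPKM. Tmem121, a membrane protein, stood at 23.6, 13.1, 0 and 1.07 RPKM. In all 12 genes PD-1+ replicate 1 was higher than PD-1+ replicate 2. That both lay above the CCR6+ libraries follows from how the genes were picked.

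**Figure D4:**
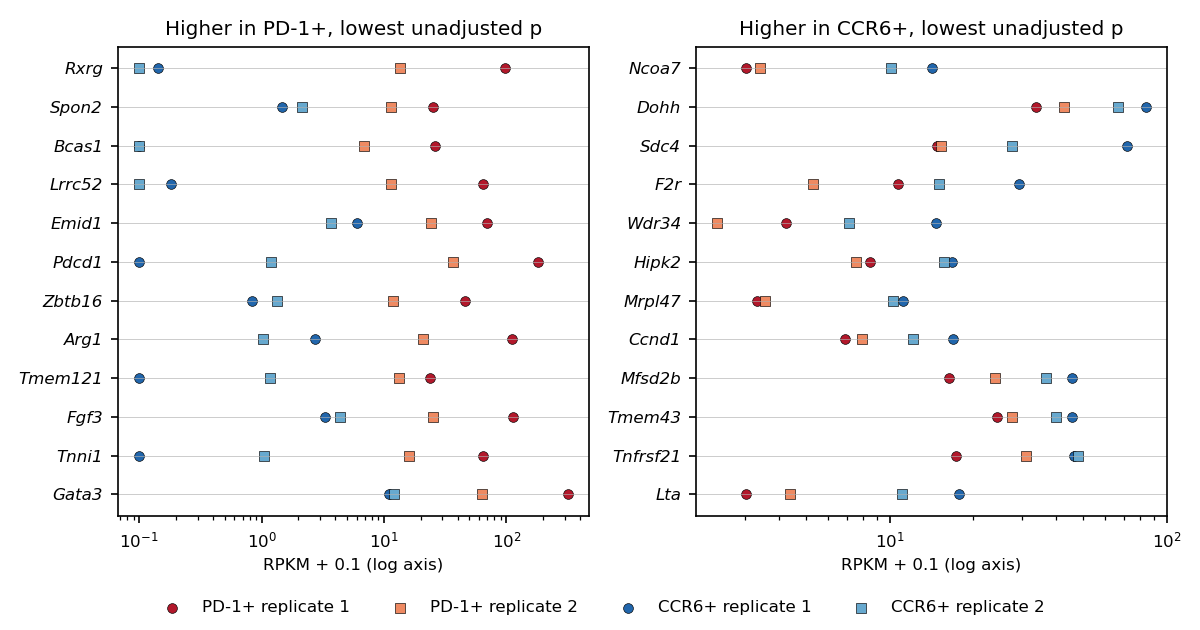
RPKM plus 0.1 (log axis) of the 12 genes per direction with the lowest unadjusted p among genes without overlap whose higher group averaged 10 RPKM or more, 1 point per library. The distance between groups is wider on the PD-1+ side, where Rxrg stood at 98.1 and 13.4 RPKM against 0.0439 and 0, than on the CCR6+ side, where Ncoa7 stood at 14.1 and 9.996 against 2.94 and 3.30.

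LTi and ILC3 genes were shifted to the CCR6+ side, by small amounts. Of 20 listed genes 17 were tested. Of these, 12 were without overlap and higher in CCR6+ and 1 higher in PD-1+ libraries, beside 15.8% and 17.5% of all genes tested. The 3 that were 2-fold apart were all higher in CCR6+, beside 0.896% of all genes tested. The median difference was -0.87, and it was -0.86 with PD-1+ replicate 1 alone and -0.91 with replicate 2 alone. PD-1+ replicate 2 lay below both CCR6+ libraries in 16 of the 17 genes and replicate 1 in 12, which does not measure distance. By the list median the weaker PD-1+ library was no nearer to the CCR6+ libraries. Gene by gene this varied, and PD-1+ replicate 2 lay above replicate 1 in 8 of the 17.

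Lta (NM_010735), the lymphotoxin α that LTi cells use to induce lymph nodes, stood at 2.94, 4.27, 17.7 and 11.01 RPKM (log2 fold change -2.04, SE 0.62). Il2ra, which encodes CD25, stood at 0, 0.348, 4.10 and 3.02 RPKM, and Il23r, a receptor chain for IL-23, at 0.387, 0.223, 3.05 and 1.27. All 3 were 2-fold apart, and both receptor genes were at low levels. Tmem176a, an ion channel gene of ILC3 and dendritic cells, stood at 73.7, 40.3, 152 and 89.6 RPKM. Cd4, which part of the LTi cells carry, stood at 6.82, 12.8, 26.2 and 13.9 RPKM, and Nrp1, another LTi surface protein, at 7.32, 7.10, 9.91 and 13.2. These were higher in both CCR6+ libraries, with PD-1+ replicate 2 and CCR6+ replicate 2 nearly level for Cd4.

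Some genes that are known as LTi genes did not follow that direction. Ltb, the lymphotoxin β, stood at 494, 256, 364 and 267 RPKM. Cxcr5, the receptor that guides LTi cells to follicle sites, stood at 63.0, 10.5, 17.8 and 13.1 RPKM. In both genes the groups overlapped and the number 1 library was higher than the number 2 library in both groups. Ahr, the aryl hydrocarbon receptor that ILC3 depend on, stood at 7.19, 4.40, 1.31 and 3.27 RPKM and was the 1 gene of the list higher in both PD-1+ libraries. Il22 and Il17a had no read in any of the 4 libraries.

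The 12 genes with the lowest unadjusted p on the CCR6+ side differed by less than those of the PD-1+ side, and Lta was the only 1 of them in any of the gene lists. Ncoa7 (NM_172495), a nuclear receptor coactivator, stood at 2.94, 3.30, 14.1 and 9.996 RPKM (log2 fold change -2.01, SE 0.39). Sdc4 (NM_011521), the proteoglycan syndecan-4, stood at 14.8, 15.2, 72.0 and 27.6 RPKM (log2 fold change -1.79, SE 0.42). F2r, the thrombin receptor PAR1, stood at 10.6, 5.17, 29.2 and 15.0 RPKM. For Ncoa7 and Sdc4 the PD-1+ libraries were close to each other, well under both CCR6+ libraries. Ccnd1 (NM_007631), cyclin D1, stood at 6.78, 7.86, 16.9 and 12.1 RPKM (log2 fold change -1.04, SE 0.29). Hipk2, a nuclear kinase, stood at 8.37, 7.46, 16.7 and 15.6 RPKM. Tnfrsf21, the death receptor DR6, stood at 17.3, 31.0, 46.3 and 47.9 RPKM. The remaining genes were Dohh, an enzyme that completes hypusine on eIF5A, Wdr34, a dynein chain, Mrpl47, a protein of the mitochondrial ribosome, the sphingosine phosphate exporter Mfsd2b and the membrane protein Tmem43. Their log2 fold changes lay between -1.83 and -0.77, and Mrpl47 alone of these 5 was 2-fold apart.

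Genes of ILC1 and NK cells were mixed. Of 26 genes, all tested, 8 were without overlap and higher in PD-1+ and 4 higher in CCR6+ libraries, beside 17.5% and 15.8% of all genes, and none was 2-fold apart. Ccl5, a chemokine of cytotoxic and memory lymphocytes, stood at 575, 273, 161 and 178 RPKM, and Nkg7, a protein of cytotoxic granules, at 303, 145, 87.9 and 104. Il12rb1, a receptor chain shared by IL-12 and IL-23, stood at 33.3, 5.66, 4.04 and 1.74 RPKM. These were higher in both PD-1+ libraries. Cd160, an NK receptor, stood at 0.465, 2.204, 9.38 and 3.14 RPKM, higher in CCR6+ libraries, and Tbx21, which encodes the ILC1 factor T-bet, overlapped at 7.74, 2.85, 5.61 and 7.50. The list's median difference was 0.26 and changed sign between the PD-1+ libraries, being 0.58 with replicate 1 alone and -0.07 with replicate 2 alone.

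Of 19 genes of T cell receptor signalling, all tested, 6 were without overlap and higher in PD-1+ and 2 higher in CCR6+ libraries, beside 17.5% and 15.8% of all genes tested. The median difference was 0.26 (0.46 with PD-1+ replicate 1 alone and 0.24 with replicate 2 alone). Thy1, a surface glycoprotein of T cells and ILCs, stood at 37.0, 13.3, 3.94 and 5.77 RPKM (log2 fold change 2.28, SE 0.59). Themis, an adaptor of T cell development, stood at 7.05, 2.78, 0 and 0.276 RPKM. It and Thy1 were the members 2-fold apart, beside 1.63% of all genes tested on the PD-1+ side. The kinase genes Lck and Txk stood at 114, 36.2, 24.1 and 21.5 RPKM and at 33.6, 6.00, 3.57 and 3.95, and the adaptor Lat at 89.9, 33.4, 16.8 and 26.3. The CD3 chains Cd3e, Cd3d and Cd3g, which define mature T cells, stood at 2.85 to 15.1 RPKM in the 4 libraries and none was higher in both PD-1+ libraries. Whether other cells took part in these levels was not tested.

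Notch pathway genes lay on both sides. Of 13 listed genes 12 were tested, 3 without overlap on each side, beside 17.5% and 15.8% of all genes tested, and the median difference was -0.29. Hes1, a target of Notch signalling, stood at 74.7, 18.7, 1.10 and 5.39 RPKM (log2 fold change 3.73, SE 0.84), and Hey1, another target, at 1.09, 1.14, 0 and 0. Both were 2-fold apart, beside 1.63% of all genes tested on the PD-1+ side, and Hey1 was at a low level. The receptor genes lay in narrow ranges, with Notch1 at 6.73 to 11.1 RPKM, overlapping, and Notch2 at 13.7 to 17.0, slightly higher in CCR6+ libraries. Nrarp, which encodes a feedback inhibitor induced by Notch, was higher in CCR6+ libraries, at 0, 0.765, 3.02 and 1.25 RPKM.

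MHC class II genes were lower in the PD-1+ libraries, in replicate 1 above all. Of 10 genes, all tested, 6 were without overlap and higher in CCR6+ and 1 in PD-1+ libraries, beside 15.8% and 17.5% of all genes tested. None was 2-fold apart, and the median difference was -0.74 (-1.22 with PD-1+ replicate 1 alone and -0.26 with replicate 2 alone). Cd74, the invariant chain, stood at 1035, 2100, 2454 and 2682 RPKM, and H2-Ab1, a class II β chain, at 631, 1177, 1402 and 1515. B cells, macrophages and dendritic cells carry these genes too: the summed markers of the B lineage were 264, 332, 392 and 384 RPKM, those of monocytes and macrophages 1214, 1968, 2021 and 2145, and those of plasmacytoid and dendritic cells 401, 457, 549 and 516, all lowest in PD-1+ replicate 1. Their part in the class II levels was not tested.

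Among cytokine receptors, all 25 tested, 10 were without overlap and higher in CCR6+ and 3 higher in PD-1+ libraries, beside 15.8% and 17.5% of all genes tested, with a median difference of -0.41. The 3 PD-1+ genes were Il17rb, Il12rb1 and Il18r1, a receptor chain for IL-18 that stood at 10.3, 4.23, 4.05 and 1.24 RPKM. Il6st, the signalling chain gp130, was on the CCR6+ side at 3.00, 6.92, 9.87 and 9.17 RPKM. The common γ chain gene Il2rg, at 204, 129, 170 and 146 RPKM, overlapped. Of 20 chemokine receptor and homing genes, 3 were higher without overlap in PD-1+ and 5 in CCR6+ libraries, with a median difference of -0.03. Over all genes tested the shares were 17.5% and 15.8%. Ccr9, the gut homing receptor, stood at 15.9, 6.08, 5.99 and 3.58 RPKM, and Cxcr3, a receptor of interferon-induced chemokines, at 8.60, 13.3, 21.9 and 18.5. These 2 lay on opposite sides. Of 19 inhibitory and costimulatory receptor genes, 4 were higher without overlap in PD-1+ and 6 in CCR6+ libraries, against the same shares, with a median difference of -0.03. Cd27, a costimulatory receptor of the TNF receptor family, stood at 43.2, 18.4, 10.5 and 9.53 RPKM, and Lag3, an inhibitory receptor, overlapped at 29.3, 12.4, 15.4 and 15.4.

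Cell cycle genes were slightly lower in PD-1+ libraries. Of 30 genes, all tested, 17 were without overlap and higher in CCR6+ and 2 (the replication licensing genes Mcm3 and Mcm4) higher in PD-1+ libraries. Over all genes tested the shares were 15.8% and 17.5%. None of the 30 was 2-fold apart, and the median difference was -0.29. Bub1, a spindle checkpoint kinase, differed most among the listed genes that met the naming rule, at 3.54, 4.84, 9.60 and 7.14 RPKM (log2 fold change -1.05, SE 0.40), and Ccna2, cyclin A2, stood at 76.9, 94.1, 146 and 99.5. Mki67, the proliferation marker, overlapped at 32.4, 34.7, 39.6 and 34.6 RPKM. Of 23 cholesterol synthesis genes 22 were tested, 3 without overlap on each side, no more than the shares over all genes, with a median difference of -0.04. Insig1, which restrains cholesterol synthesis, stood at 7.82, 7.41, 9.79 and 9.46 RPKM, and the epoxidase gene Sqle at 6.23, 6.16, 5.52 and 4.77, so these 2 lay on opposite sides by small amounts.

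All lists of other marrow cells had medians below 0 with both PD-1+ libraries. Over all genes tested, 15.8% were without overlap and higher in CCR6+ and 17.5% higher in PD-1+ libraries. Of 11 erythroid genes 9 were without overlap and higher in CCR6+, with a median difference of -0.43. Alas2, the first enzyme of red cell heme synthesis, stood at 519, 704, 833 and 725 RPKM. None of the 14 neutrophil genes was free of overlap, and the list's median was -0.25 with both PD-1+ libraries but 0.25 with replicate 2 alone. Monocyte and macrophage genes had 4 of 10, B lineage genes 6 of 13 and plasmacytoid and dendritic genes 5 of 10 without overlap on the CCR6+ side, with medians of -0.47, -0.36 and -0.11. With PD-1+ replicate 2 alone the monocyte and macrophage median was -0.07, and with replicate 1 alone it was -0.86. The B lineage median was -0.18 with replicate 2 alone and -0.67 with replicate 1 alone, and the erythroid one -0.19 and -0.69. On the PD-1+ side the monocyte and macrophage, the B lineage and the plasmacytoid and dendritic lists had 0, 2 and 2 genes without overlap. Plasma cell genes had 1 of 6 without overlap, Sdc1, higher in PD-1+ at 33.4, 19.3, 15.6 and 15.3 RPKM, and mast and basophil genes had 1 of 7 on each side. Both lists were thus no more separated than the shares over all genes. The medians of these lists, -0.08 and -0.54, turned with the PD-1+ library: they were -0.63 and -1.32 with replicate 1 alone and 0.34 and 0.33 with replicate 2 alone. Immediate early genes had 1 of 16, Egr3, higher in CCR6+ libraries, with a median of -0.09.

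Platelet and megakaryocyte genes had a median difference of -1.13 over few members, which was -0.70 without CCR6+ replicate 2. Of 7 genes 4 were without overlap and higher in CCR6+, and Gp5 and Vwf were 2-fold apart. Over all genes tested the CCR6+ shares were 15.8% without overlap and 0.896% 2-fold apart. Gp5, a platelet glycoprotein, stood at 6.79, 7.59, 21.1 and 17.6 RPKM, and Ppbp, a platelet chemokine, at 19.6, 25.9, 38.3 and 144. Pf4, the most abundant platelet marker of the list, overlapped at 171, 71.2, 101 and 219 RPKM, and the list's sums were 230, 164, 220 and 487. Stem and multipotent genes had 4 of 11 higher in CCR6+ and 1 higher in PD-1+ libraries without overlap, beside 15.8% and 17.5% of all genes tested. Their median was -0.18. The part of platelets or megakaryocytes in the CCR6+ side was not tested.

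**Figure D5:**
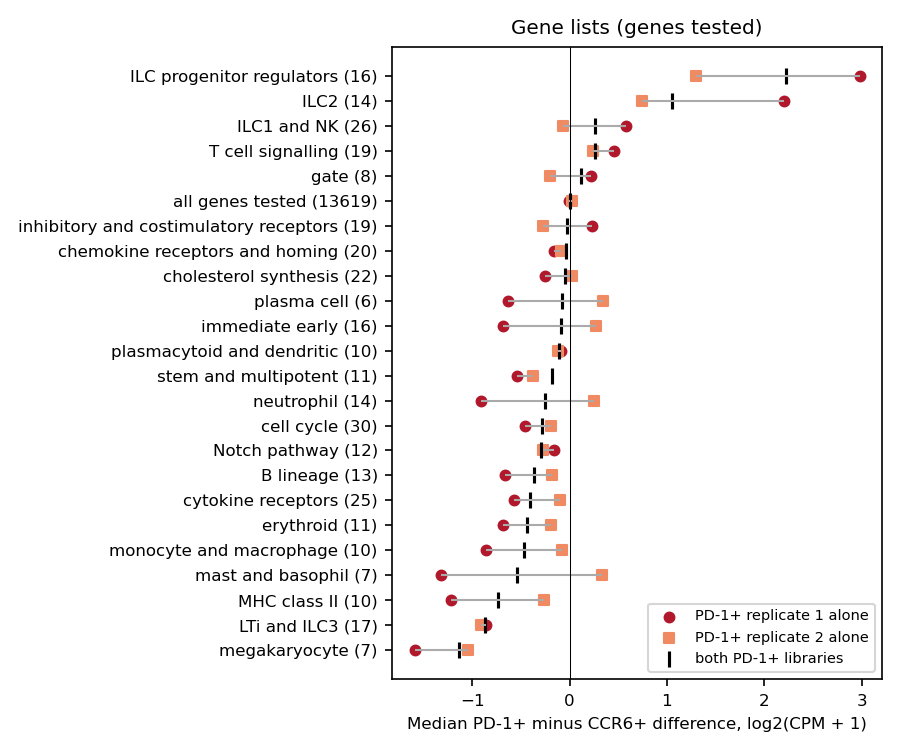
Median difference of each gene list, PD-1+ minus CCR6+ in log2(CPM + 1), with both PD-1+ libraries (bars) and with each alone (points); the number of genes tested follows each name. The ILC progenitor regulators (2.22) and ILC2 genes (1.06) lie to the right of 0 with either library, while LTi and ILC3 genes (-0.87) lie to the left.

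PD-1+ replicate 2 was also described for genes picked from PD-1+ replicate 1. In replicate 1, 314 genes (2.31%) lay at least 4-fold above both CCR6+ libraries. Replicate 2 lay above both for 243 of them (77.4%), and it did so for 32.1% of all genes tested. Both steps used the same CCR6+ libraries, and genes picked in the first step were low in them, so these shares are a description and not a test. Its excess over the CCR6+ mean was a median of 17.7% of that in replicate 1 (interquartile range 5.73% to 34.1%). In the other direction 262 genes (1.92%) lay at least 4-fold below both CCR6+ libraries, and replicate 2 lay below both for 145 (55.3%), and for 27.6% of all genes. For 51 of these 262 genes replicate 2 lay above both CCR6+ libraries.

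The 36 genes called without PD-1+ replicate 2 are described likewise. Of the 22 higher in PD-1+ replicate 1, which included Rxrg, Gata3, Tcf7, Zbtb16, Bcl11b, Il17rb, Arg1, Fgf3 and Pdcd1, the left-out library lay above both CCR6+ libraries for 21. The exception, Cd163l1, stood at 7.19 RPKM in PD-1+ replicate 1 and had no read in the other 3 libraries. Of the 14 lower in PD-1+ replicate 1, the left-out library lay below both CCR6+ libraries for 8, above both for 3 and between them for 3, and 7 of the 14 had no read in PD-1+ replicate 1. Klf5, a Krüppel-like factor named here after its values were seen, stood at 0, 10.5, 13.1 and 13.6 RPKM. Its low value thus rested on 1 library.

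The undivided ChILP gate and CLP were measured in libraries whose levels did not enter the rule for genes 2-fold apart. These libraries did share in the TMM scaling, the filter of genes and the edgeR spread. The PD-1+ cells are part of the undivided gate, and CLP were enriched in another way. The shares below are therefore a description and not a test. Of the 222 genes 2-fold apart and higher in PD-1+, 44 (19.8%) were also at least 2-fold apart and higher in ChILP than in CLP, against 1.65% of all genes tested, and 12 (5.41%) were higher in CLP, against 2.15%. Of the 122 genes higher in CCR6+, 5 (4.10%) were higher in ChILP and 6 (4.92%) in CLP. Gata3 stood at 51.1 and 117 RPKM in ChILP and 1.86 and 2.74 in CLP, and Rxrg at 27.6 and 43.9 against 0.219 and 0.0641. Spon2 had 28.0 and 35.8 RPKM in ChILP and 8.69 and 8.28 in CLP, so its ChILP levels were above those of both PD-1+ libraries. Tmem121 was ordered otherwise, with 76.5 and 105 RPKM in CLP against 16.5 and 20.3 in ChILP. On the CCR6+ side, Lta stood at 2.42 and 4.59 RPKM in ChILP, near its PD-1+ levels, and Ncoa7 at 2.28 and 2.93.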

How the data were processed

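RNA of sorted cells was made into Smart-seq2 libraries, which amplify whole polyadenylated transcripts, and sequenced to a read length of 50 bp, per the labels' protocols. Bowtie2 2.2.2, CASAVA 1.8.4 and the mouse build mm9 are listed, without roles, per the submitters' processing notes. Which counter was used, how it treated strand and how it treated shared reads is not stated in those notes or labels, so antisense partners cannot be told apart. The authors deposited 1 table per library with whole-number read counts of 29257 RefSeq transcripts. The deposited RPKM values are, per the values of the files, the count divided by length and by 1 total per library.

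Each of 22878 symbols was taken as its transcript of highest mean count; 337 symbols lie at several loci and 1106 genes share their counts with another gene, Hba-a1 among such copies. Reads in genes numbered 7685188 to 13997897 per library. Intervals cover counting error only, since the libraries carry no molecular identifiers here. Groups came from the sample titles.

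The main test on the counts of all 8 libraries used edgeR 4.0.16 under R 4.3.3 (two-sided quasi-likelihood F test with the robust option, group as the only term, TMM scaling, and filterByExpr at min.count 10), which left 13619 genes, a common biological coefficient of variation of 0.526 and 4 residual degrees of freedom. The call threshold was an adjusted p (Benjamini-Hochberg) under 0.05. Fold changes are edgeR's, and each SE was derived as the absolute log2 fold change divided by the square root of edgeR's F. List medians use TMM-scaled log2(CPM + 1). Against a group without reads the fold is set against 3 counts over that group, as a lower bound; with 1 to 3 reads it is a ratio with an exact 95% interval.

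The members, 23 gene lists (333 genes) and tests were chosen with earlier results of these data known. The rule named the sort genes, Gata3, Zbtb16, Tcf7, Bcl11b, Id2, Rora, Tox and Nfil3; called genes; the 12 lowest unadjusted p-values per direction without overlap whose higher group averaged 10 RPKM or more; and up to 4 genes per list with the largest fold change, no overlap and at least 5 RPKM. Other list members and genes called without PD-1+ replicate 2 were named after their values were seen. Some genes that the rule or the lists hold are not reported here by name. Alternatives were DESeq2 1.42.0 (test and size factors), limma 3.58.1 on log2(RPKM + 1) and log2(RPKM + 0.1), no filter, the longest transcript (which differs for 535 symbols), only the 4 libraries compared, a replicate block and leaving out each library; leaving out genes at several loci or with shared counts was added after seeing the data. Promoter windows came from RefSeq (GRCm38.p6): 24 of 30 named genes looked up had one.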

Additional observations from a re-analysis of the deposited data

How the results depend on the processing

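The count of genes called by edgeR was 0 (801 at an unadjusted p under 0.05) and stayed 0 with DESeq2 size factors, no filter, limma on log2(RPKM + 1) and log2(RPKM + 0.1), only the 4 libraries compared, the longest transcript and without genes at several loci or with shared counts. The DESeq2 test called 131. Leaving out 1 library gave 0 to 36 calls, the 36 without PD-1+ replicate 2. A group then left with 1 library takes its spread from the other groups.

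With a replicate block edgeR called 0 (651 at an unadjusted p under 0.05), and 0 (437) with the block in the 4 libraries compared. Same-numbered libraries of PD-1+ and CCR6+ cells share only a number in the labels; their deviations from the group means correlated across genes at 0.0967.

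Genes 2-fold apart and higher in PD-1+ numbered 222, 85 on RPKM plus 1 and 397 to 1047 without 1 library. Those higher in CCR6+ numbered 122, 233 with CPM plus 0.1, 34 on RPKM plus 1 and 316 to 1078 without 1 library. Leaving out a library cannot lower either count, since the rule then has fewer libraries to satisfy.

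Of 95 genes reported under the naming rule, 90 kept the sign of their fold change in every setting, and 5 changed it when 1 library was left out: the log2 fold change ranged from -0.56 to 1.18 for Il7r, -0.58 to 1.34 for Kit, -0.34 to 0.088 for Itgb7, -5.51 to 0.61 for Il1rl1 and -0.27 to 0.50 for Nfil3. Most of the 95 were named for having no overlap, which fixes their direction in CPM whichever library is left out. The 5 that changed were named without that condition, so the count of 90 is no test of stability. DESeq2 called 26 of the 95, but many of the 95 were picked for a low p or a large fold change. List medians and 2-fold counts rest on levels, so other tests and the block do not apply to them; 14 of 23 medians kept their sign. Depth limits genes with few reads, of which 55 of 222 on the PD-1+ side and 48 of 122 on the CCR6+ side had none in the other group.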

Other observations

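Some genes that were 2-fold apart lie next to each other in the RefSeq gene order. On the PD-1+ side 201 of the 222 genes could be placed, and 2 of them (0.995%), Rxrg and Lrrc52, had a neighbour in the set, against 2.09% of all 12893 placed genes tested. On the CCR6+ side 4 of 116 (3.45%) had one, against 1.19%. These were Klhl30 beside Fam132b, and Schip1 beside the readthrough gene Iqcj-schip1, whose transcripts overlap and can share reads.

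The genes around Fgf3, looked at after its values were seen, differed among themselves, and 1 of them, Fgf15, was also 2-fold apart and higher in PD-1+. Fgf15, a fibroblast growth factor known for control of bile acid synthesis, stood at 54.1, 3.68, 0 and 0 RPKM in PD-1+ replicates 1 and 2 and CCR6+ replicates 1 and 2. Fgf4, which lies between them, had no read in any of the 4 libraries. Ano1, a chloride channel on the other side of Fgf3, stood at 1.62, 0.120, 0 and 0 RPKM. Further along, after Oraov1, lies Ccnd1, which was higher in both CCR6+ libraries. Around Gata3, the neighbours Celf2, at 20.5, 17.8, 15.5 and 14.9 RPKM, and Taf3, at 5.94, 6.15, 4.44 and 6.54, were not 2-fold apart.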
